A study of Mus musculus with 14 samples.

Results

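The early growth response genes Egr1, Egr2 and Egr3, the orphan nuclear receptor genes Nr4a1, Nr4a2 and Nr4a3, the immediate early response genes Ier2 and Ier3 and the Krüppel-like factor genes Klf2 and Klf4 were followed in mouse Ocy454 cells. These 10 genes were chosen by name as families of early response genes, with earlier results of these data known. All 10 were found among the 39179 genes of the differentiation experiment and among the 35886 genes of the sorting experiment, and all 10 passed the filter on low values in both.

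Ocy454 is an osteocyte-like mouse line that carries a temperature-sensitive T antigen; warming the confluent cultures switches the antigen off, and differentiation follows. In the differentiation experiment, cells were collected 1, 7, 10 and 14 days after that shift, with 2 biologic replicates per day. In the sorting experiment, cells differentiated for 17 days per the labels were trypsinized, labeled for CD61 (integrin β3, a surface protein used by the study as a marker of osteocyte maturity) and sorted into the 10% of live cells with the strongest signal (CD61 high) and the 10% with the weakest (CD61 low), with 3 replicates each. The sources differ by a day on the time of the sort, and the time in the labels is used here. All groups were the same line in the same medium, and the labels name no added hormone, growth factor or other agent. Days at the higher temperature, age of the culture and cell density moved together in this design and cannot be told apart, and a single line was used. The day cells were lysed in place, whereas the sorted cells were enzymatically released, stained and kept cold first.

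Immediate early genes are switched on within minutes of a stimulus, without new protein synthesis, and in most cells their RNA is short-lived. Growth factors, cell stretch and calcium act on them through ERK kinases and serum response factor (SRF), which binds the CArG box, and cAMP acts through CREB, which binds the CRE motif. In bone cells the NR4A and EGR genes are known as early responders to parathyroid hormone and to mechanical load. Most of the products are transcription factors.

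Library depth was 27518605 to 34311238 gene-assigned reads in the 8 day libraries and 18815602 to 19220064 estimated counts in the 6 sorted libraries. Replicates differed by more than counting noise in both experiments, with a chi-square value per gene of 2.28 to 6.36 between day replicates and of 6.95 to 19.9 between sorted replicates. The summed level of 12 osteoblast to osteocyte markers was 35639 to 35693 CPM at day 1 and 29741 to 34918 CPM at day 14. Of these markers 10 were tested, of which 7 were called higher at day 14 than at day 1 (7.51% of all genes) and 9 in CD61 high against CD61 low cells (4.84% of all genes), whereas Fgf23, a hormone of mature osteocytes, was at 0 in every day library. Of markers of other cells, the sum in any library was at most 24.6 CPM for 8 macrophage, 10.8 CPM for 5 megakaryocyte and 0.755 CPM for 5 adipocyte markers. The sum of 5 chondrocyte markers reached 99.2 CPM at day 14, and that of 6 osteoclast markers was 60.1 to 88.0 CPM in the day libraries, where Ctsk (cathepsin K) was the only one tested and Calcr and Dcstamp were at 0. Among 7 endothelial markers the only gene above the filter was Vwf (von Willebrand factor), whose level ran from 0.906 CPM at day 1 to 127 CPM at day 10, while Emcn was at 0 in all 14 libraries.

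The sequence just upstream of the annotated start site is shown for 4 of the genes, chosen because matches to the motifs of stimulus-responsive factors lie there. The 120 bases before the start of the canonical transcript were read from GRCm39 with the GENCODE M39 annotation. They lie on the plus strand at chr10:67373572-67373691 (Egr2), chr4:48045033-48045152 (Nr4a3) and chr8:73072606-73072725 (Klf2), and on the minus strand at chr8:85389484-85389603 (Ier2). Capitals mark the CArG box, the CRE core TGACG on either strand (written CGTCA on the other), the full CRE TGACGTCA and the EGR-type motif GCGGGGGCG.
Egr2: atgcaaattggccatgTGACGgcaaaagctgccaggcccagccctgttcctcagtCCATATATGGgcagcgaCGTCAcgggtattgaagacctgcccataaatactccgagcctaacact
Nr4a3: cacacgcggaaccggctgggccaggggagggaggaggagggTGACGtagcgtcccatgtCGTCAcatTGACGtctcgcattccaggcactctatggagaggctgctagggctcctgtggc
Ier2: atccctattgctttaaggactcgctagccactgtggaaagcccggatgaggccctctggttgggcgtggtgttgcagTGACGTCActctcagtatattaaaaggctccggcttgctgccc
Klf2: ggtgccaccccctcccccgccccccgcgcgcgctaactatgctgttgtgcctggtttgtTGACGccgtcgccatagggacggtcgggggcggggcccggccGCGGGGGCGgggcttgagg

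Egr2 carried the CArG box CCATATATGG, which began 65 bases before its start, with TGACG upstream of the box and CGTCA downstream of it. It was the only 1 of the 9 promoters searched with a CArG box, and the other 8, that of Egr1 among them, had none in this window. Over 250 bases, a CArG box was present in 1.38% of the promoters of 21593 protein-coding genes. The full CRE of Ier2, which began 43 bases before the start, was found in 1.7% of these promoters. Nr4a3 had 3 copies of the core TGACG and no full CRE, and Nr4a1 had 2 copies that lay further upstream, 166 and 146 bases before its start. The core, which also lies inside each full CRE, occurred in 7 of the 9 genes whose promoters were searched and in 18.1% of all promoters. Klf2 and Klf4 held GCGGGGGCG, a motif of 2.4% of promoters, and Nr4a2 and Ier3 held none of the marked motifs. The promoters of the 9 genes had a GC content of 52.4 to 73.6%, against a median of 53.2% for all. A match of letters is not a bound site, and no binding was measured here.

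At day 14, 9 of the 10 genes were called higher than at day 1, against 7.51% of the 12725 genes tested. A call needed an adjusted p below 0.01 in limma and a Log2FC above 1 or below -1, both computed on log2(CPM + 1), where CPM is the count scaled to the library's total reads. The exception was Nr4a2. None was called lower in limma (5.9% of all genes were, and 0 of the 10 also at an unadjusted p below 0.05, and 0 in edgeR on the recovered reads), and the median Log2FC of the 10 genes was 2.40, compared to -0.03 over all genes. The increase was already visible at day 7, when 4 of the 10 genes were called higher than at day 1 in limma (4.49% of all genes). The median Log2FC of the 10 genes was then 0.74. In edgeR on the recovered reads 5 were called, with Nr4a3 added, where 876 of 12725 genes were called higher. At day 10, 7 were called in limma (6.06% of all genes), with a median Log2FC of 1.62. The genes did not follow a common course, and the levels by day in the plot of CPM fell into a late, an intermediate and an early pattern.

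**Figure D1:**
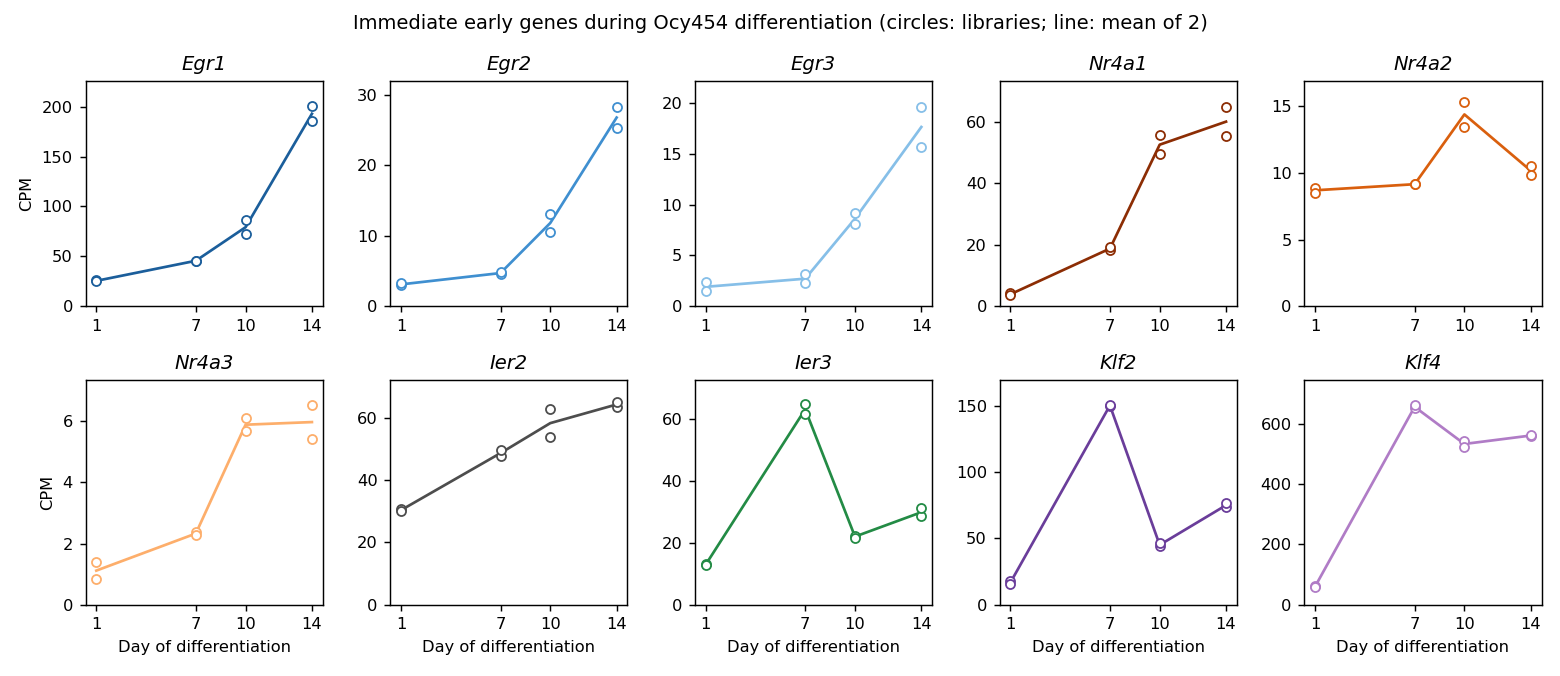
CPM (vertical axis, linear from 0) of each gene at days 1, 7, 10 and 14 of differentiation; circles are the 2 libraries of a day and the line joins their means. The EGR genes climb to their highest level at day 14, Ier3, Klf2 and Klf4 peak at day 7, and Nr4a2 peaks at day 10.

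The EGR genes encode zinc finger transcription factors that bind GC-rich sites and are classic targets of SRF. All 3 gained most of their level after day 7. At day 7 Egr1 (Log2FC 0.82, adjusted p = 4.47e-12 in limma) and Egr2 (Log2FC 0.48, adjusted p = 0.000309) were already above day 1, short of the fold threshold. Egr3 did not pass the adjusted p there (Log2FC 0.36, adjusted p = 0.0263). Egr1 measured 25.9 and 24.8 CPM (day 1), 45.6 and 45.4 CPM (day 7), 86.1 and 72.2 CPM (day 10) and 200 and 186 CPM (day 14). The 4 days did not overlap, and the rise over the whole course was 7.61-fold (Log2FC 2.88, SE 0.060, adjusted p = 3.67e-24 in limma). Egr2, which in other tissues is known from myelination and from T cell tolerance, measured 2.95 and 3.23 CPM (day 1), 4.59 and 4.82 CPM (day 7), 13.1 and 10.6 CPM (day 10) and 28.4 and 25.3 CPM (day 14). Days did not overlap, and its increase from day 1 to day 14 was 8.67-fold (Log2FC 2.76, SE 0.11, adjusted p = 3.01e-18). Egr3 measured 2.33 and 1.47 CPM (day 1), 3.12 and 2.29 CPM (day 7), 9.13 and 8.09 CPM (day 10) and 19.6 and 15.7 CPM (day 14). Its day 1 and day 7 libraries overlapped, and the later days lay clear above both, with a rise of 9.27-fold by day 14 (Log2FC 2.69, SE 0.14, adjusted p = 1.92e-15).

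Between neighbouring days, the EGR genes rose at each of the later steps. From day 7 to day 10, Egr3 (Log2FC 1.38) and Egr2 (Log2FC 1.16) were called higher, while Egr1 passed the adjusted p with a smaller Log2FC of 0.78. From day 10 to day 14, Egr1 (Log2FC 1.28) and Egr2 (Log2FC 1.12) were called higher, and Egr3 stood just under the fold threshold (Log2FC 0.95, 95% interval 0.66 to 1.24). Across all 10 genes, day 10 against day 7 gave 4 calls higher and 2 lower, where 1.43% and 0.786% of all genes were called. With quantile normalization Nr4a3 fell from a Log2FC of 1.05 to 0.92 for this step, which left 3 calls higher. Day 14 against day 10 gave the 2 EGR calls higher, where 2.09% of all genes were called. Without day 10 replicate 2 the Log2FC of Egr2 for day 14 against day 10 was 0.98, which left Egr1 as the only call; without day 10 replicate 1 or day 14 replicate 2 that of Egr3 was 1.03 and 1.10, which added it. Egr3 was also called in edgeR on the recovered reads (Log2FC 1.10, adjusted p = 1.34e-07) and with a pseudocount of 0.1 (Log2FC 1.02).

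The NR4A genes encode nuclear receptors whose activity is set largely by how much protein is made, since they have no known natural hormone. Nr4a1 (Nur77) had the largest Log2FC of the 10 genes for day 14 against day 1. It measured 4.16 and 3.58 CPM (day 1), 18.3 and 19.1 CPM (day 7), 55.7 and 49.3 CPM (day 10) and 64.7 and 55.3 CPM (day 14). Its level went up 4.84-fold by day 7 and 13.6-fold by day 10, after which days 10 and 14 overlapped (Log2FC of day 14 against day 10 0.19, adjusted p = 0.0507 in limma). That last step was 0.075 without day 14 replicate 1, 0.10 without day 10 replicate 2 and 0.30 without day 14 replicate 2, and edgeR on the recovered reads gave 0.25 (adjusted p = 0.00285). Over the whole course its Log2FC was 3.65 (SE 0.082, adjusted p = 2.21e-23). Nr4a3 (NOR-1) took a like course at a much lower read level.

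Nr4a3 measured 1.39 and 0.847 CPM (day 1), 2.37 and 2.29 CPM (day 7), 5.68 and 6.09 CPM (day 10) and 6.53 and 5.41 CPM (day 14). The gene was called higher at day 10 (Log2FC 1.71, adjusted p = 1.49e-11) and at day 14 (Log2FC 1.73, adjusted p = 1.01e-11), and the last 2 time points overlapped. Its lowest library held 27 reads of this gene, so that the pseudocount mattered: with 0.1 in place of 1 the Log2FC at day 7 moved from 0.66 to 1.03, past the fold threshold, and edgeR on the recovered reads gave 1.10 (adjusted p = 0.000364). Nr4a2 (Nurr1), the family member best known from dopamine neurons, measured 8.89 and 8.50 CPM (day 1), 9.15 and 9.15 CPM (day 7), 15.3 and 13.5 CPM (day 10) and 10.5 and 9.81 CPM (day 14). Only day 10 stood out, with a Log2FC of 0.66 over day 1 (adjusted p = 5.97e-07) and of 0.60 over day 7, and the decline to day 14 was also past the adjusted p (Log2FC -0.46, adjusted p = 0.000135). At day 14 Nr4a2 was at 0.20 over day 1 on the log2 scale (95% interval 0.01 to 0.40, adjusted p = 0.0511). The 3 NR4A genes therefore ended the course with Log2FC values of 3.65, 0.20 and 1.73 over day 1.

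**Figure D2:**
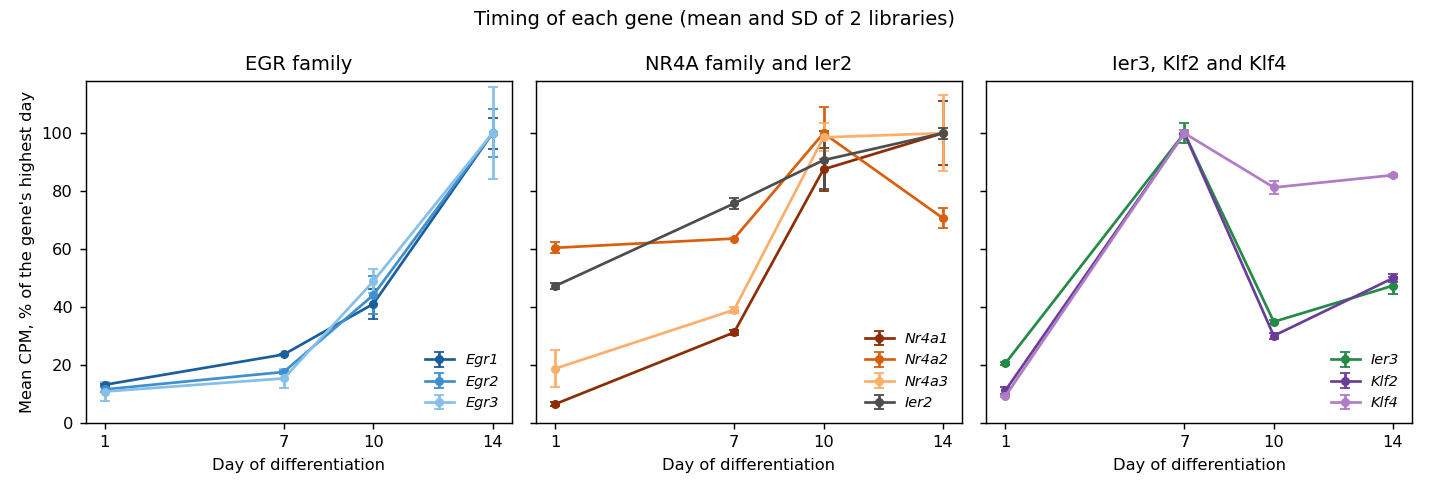
Mean CPM of each gene at days 1, 7, 10 and 14 as a percentage of its own highest day, with the SD of 2 libraries as error bars. The EGR genes are below 25% of their highest level at day 7, Nr4a1 and Nr4a3 are near their highest level by day 10, and Ier3 and Klf2 are at 100% at day 7 and below 40% at day 10.

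Ier2 and Ier3 share a name but not a family. Ier2 encodes a small nuclear protein induced by growth factors, and Ier3 encodes a stress-induced protein known for its effects on cell survival and as a target of NF-κB. Ier2 climbed steadily, from 30.8 and 29.9 CPM (day 1) to 47.7 and 49.5 CPM (day 7), 62.8 and 53.7 CPM (day 10) and 63.4 and 65.1 CPM (day 14). Each day lay above the one before without overlap, and the total change was 2.12-fold (Log2FC 1.06, SE 0.060, adjusted p = 1.26e-14). The step from day 10 to day 14 was small (Log2FC 0.14, adjusted p = 0.0398). It was 0.03 (adjusted p = 0.695) without day 10 replicate 2 and 0.25 (adjusted p = 0.0018) without day 10 replicate 1, and edgeR on the recovered reads gave 0.20 (adjusted p = 0.00405). At day 10 its Log2FC over day 1 was 0.91, or 1.03 without day 10 replicate 2. Ier3 instead peaked early. It measured 13.2 and 12.7 CPM (day 1), 61.4 and 64.6 CPM (day 7), 22.3 and 21.6 CPM (day 10) and 28.6 and 31.1 CPM (day 14). It rose 4.87-fold to day 7 (Log2FC 2.20, adjusted p = 1.91e-20) and then fell by day 10 (Log2FC -1.48, adjusted p = 9.51e-16), which left it above day 1 (Log2FC at day 14 1.14, adjusted p = 2.04e-14).

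Klf2 and Klf4 encode Krüppel-like zinc finger factors. Klf2 is known as the flow-induced factor of endothelium, where ERK5 and MEF2 proteins drive it, and Klf4 as a factor of epithelial barrier formation and of pluripotency. Klf2 measured 18.0 and 15.5 CPM (day 1), 150 and 150 CPM (day 7), 43.9 and 46.3 CPM (day 10) and 73.5 and 76.5 CPM (day 14). It showed the same early peak as Ier3, with a Log2FC of 3.09 to day 7 (adjusted p = 4.52e-25), a decline to day 10 (Log2FC -1.71, adjusted p = 3.57e-18) and a partial return by day 14 (Log2FC 0.72 over day 10, adjusted p = 5.16e-11). Ier3 and Klf2 were the only 2 of the 10 genes called lower in any of the 5 comparisons of days. Klf4 had the highest CPM of the 10 genes on each day, with no account of transcript length, at 62.7 and 58.6 CPM (day 1), 652 and 661 CPM (day 7), 544 and 523 CPM (day 10) and 559 and 564 CPM (day 14). Its 10.8-fold rise was complete by day 7 (Log2FC 3.42, SE 0.038, adjusted p = 5.69e-30) and was followed by a small decline to day 10 (Log2FC -0.30, adjusted p = 2.1e-07). From day 10 to day 14 its Log2FC was 0.07 (adjusted p = 0.0912 in limma), and 0.05 to 0.10 with a library left out. In edgeR on the recovered reads this step was 0.13 (adjusted p = 0.00372).

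Klf4 dominated the summed level of the 10 genes. The sum was 165 ± 7.79 CPM on day 1 (mean ± SD, n = 2), 1001 ± 10.3 CPM on day 7, 831 ± 38.0 CPM on day 10 and 1044 ± 14.9 CPM on day 14, and Klf4 made up 36.8%, 65.6%, 64.2% and 53.8% of it. Levels were compared between genes per transcript length, as length-scaled values (TPM) from the CPM values and the deposited gene lengths. At day 14, Klf4 was at 610 ± 6.55 TPM, Ier2 at 140 ± 0.281, Klf2 at 135 ± 1.60 and Egr1 at 127 ± 8.94, where the libraries of Klf2 and Egr1 overlapped. Ier3 (87.4 ± 3.82 TPM) and Nr4a1 (80.6 ± 10.3 TPM) followed, and their libraries overlapped. Egr2 was at 28.6 ± 2.81 TPM, Nr4a2 at 7.09 ± 0.468 and Nr4a3 at 3.06 ± 0.454. Egr3 came to 41.3 ± 7.23 TPM with its deposited length of 1414 bases, but its canonical transcript has 3940 bases, so that its place in this order depends on the length used. The place of Egr1 next to Ier2 and Klf2 depends on it as well, with 5024 bases deposited and 4484 in its canonical transcript. At day 1 the order was different, as Ier2 (68.8 ± 1.39 TPM) and Klf4 (68.7 ± 3.32 TPM) overlapped at the top.

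**Figure D3:**
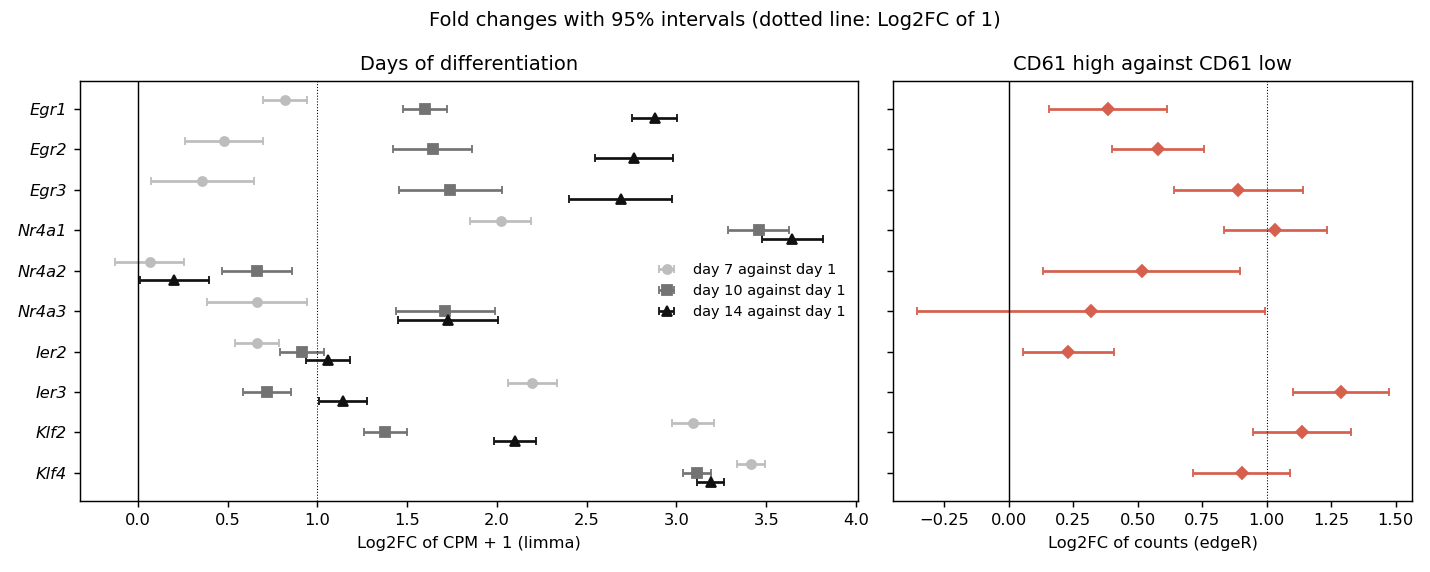
Log2FC of each gene with 95% intervals, in the left panel for days 7, 10 and 14 against day 1 and in the right panel for CD61 high against CD61 low; the dotted line marks the fold threshold of 1. The EGR genes move right from day to day, Ier3, Klf2 and Klf4 have their own highest value at day 7, and all 10 values in the sort are above 0.

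The sort asked which of these genes differ with surface CD61 among cells of the same age. All 10 had a Log2FC above 0 in CD61 high against CD61 low cells, with a median of 0.73 compared to 0.00 over the 12077 genes tested; with library size as the only scaling Ier2 turned to -0.07, where the median of all genes also moved to -0.29. In bulk RNA, more cells that express a gene and more RNA per cell cannot be told apart. In edgeR, 3 genes were called higher (4.84% of all genes) and 0 lower (4.37% of all genes), with 9 and 0 at an unadjusted p below 0.05 and 3 and 0 in DESeq2. The libraries of the groups did not overlap for 8 of the 10 genes, which held for 58% of all genes, so that a lack of overlap alone was common here.

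The 3 called genes were Ier3, Klf2 and Nr4a1. Ier3 measured 73.0, 63.0 and 60.2 CPM (after TMM scaling) in CD61 low and 160, 162 and 157 in CD61 high cells, and its Log2FC was 1.29 (SE 0.083, adjusted p = 1.21e-06 in edgeR). Klf2 measured 67.5, 59.2 and 62.0 CPM in CD61 low and 125, 145 and 144 in CD61 high cells (Log2FC 1.14, SE 0.086, adjusted p = 3.10e-06). Nr4a1 measured 72.0, 63.6 and 70.7 CPM in CD61 low and 153, 144 and 126 in CD61 high cells (Log2FC 1.03, SE 0.089, adjusted p = 8.26e-06). All CD61 high libraries of these genes lay far above all CD61 low ones. Since the values sit close to a Log2FC of 1, the calls were sensitive to the scaling: with library size alone they were 0.99 for Ier3, 0.83 for Klf2 and 0.73 for Nr4a1, still with adjusted p of at most 4.13e-05. For Nr4a1 the Log2FC also dropped to 0.97 without CD61 low replicate 2 or without CD61 high replicate 1.

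Klf4 and Egr3 were close behind. Klf4 measured 453, 377 and 423 CPM in CD61 low and 830, 731 and 781 in CD61 high cells (Log2FC 0.90, SE 0.085, adjusted p = 1.44e-05). Egr3 measured 14.9, 14.4 and 14.5 CPM in CD61 low and 31.2, 24.2 and 25.8 in CD61 high cells (Log2FC 0.89, SE 0.11, adjusted p = 0.000107). Their 95% intervals, 0.71 to 1.09 and 0.64 to 1.14, both included the fold threshold. Over the alternative settings the Log2FC ran from 0.60 to 0.96 for Klf4 and from 0.5885 to 0.9997 for Egr3. Egr2 went from 64.0, 66.6 and 66.0 CPM to 104, 102 and 87.6 CPM (Log2FC 0.58, adjusted p = 0.000208). These 3 genes were past the adjusted p and short of the fold.

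The other 4 genes did not pass the adjusted p of 0.01 in edgeR. Egr1, in spite of its large change over days, measured 447, 419 and 455 CPM in CD61 low and 670, 495 and 558 in CD61 high cells, with a Log2FC of 0.38 (adjusted p = 0.0105). The adjusted p was 0.00188 in DESeq2 and was also below 0.01 without CD61 high replicate 2, and with library size alone the Log2FC was 0.08 for Egr1, 0.28 for Egr2 and 0.21 for Nr4a2. The CD61 high libraries of Egr1 were widely spread, and the lowest lay only slightly above the CD61 low group. Ier2 measured 236, 244 and 210 CPM against 253, 279 and 278 (Log2FC 0.23, adjusted p = 0.0323), with a Log2FC of 0.15 to 0.28 when a library was left out. For Nr4a2, at 7.22, 6.76 and 9.08 CPM against 13.0, 8.98 and 10.9, the groups overlapped (Log2FC 0.51, adjusted p = 0.0296). Nr4a3 was the lowest of the 10, at 1.91, 1.13 and 2.39 CPM against 2.64, 2.36 and 1.76, and rested on 24 to 49 estimated counts per library. Its interval ran from -0.36 to 0.99, so that a difference was not detected. Its Log2FC of 0.32 (adjusted p = 0.406 in edgeR) was 0.06 without CD61 low replicate 2, 0.55 without CD61 low replicate 3, 0.19 without CD61 high replicate 1, 0.02 with library size alone and 1.02 with an offset for transcript length, with adjusted p from 0.144 to 1 over all settings.

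**Figure D4:**
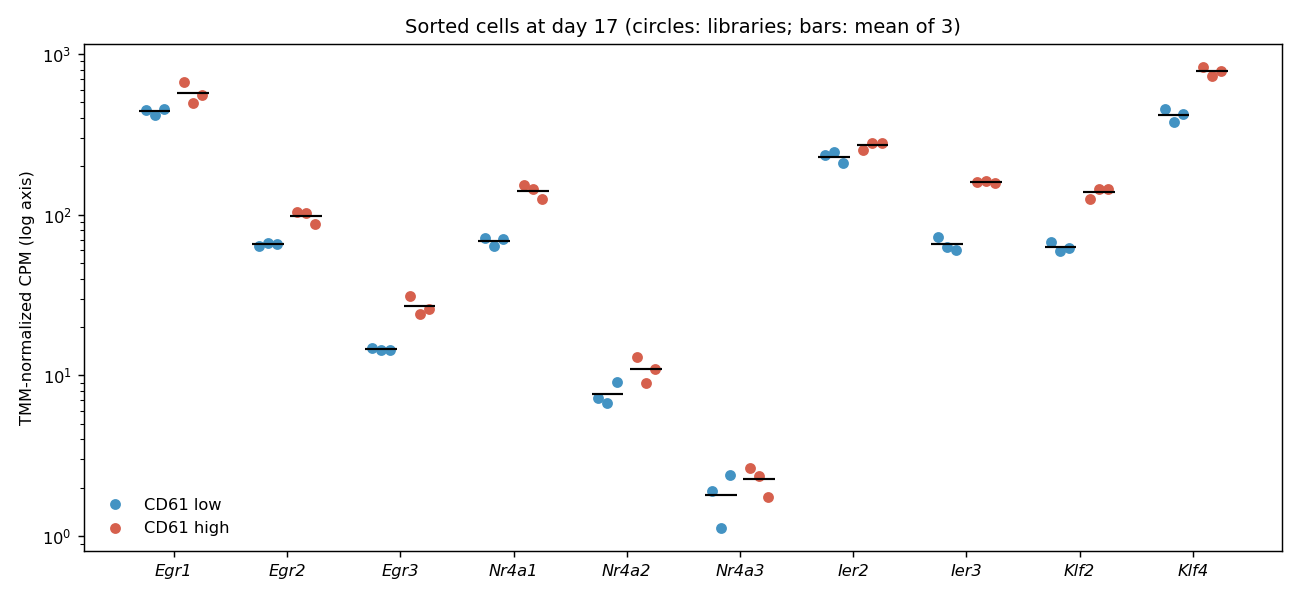
TMM-normalized CPM on a log axis for each gene in the 3 CD61 low and 3 CD61 high libraries at day 17; circles are libraries and bars are means. The groups separate most for Ier3 (65.4 against 160 CPM on average), Klf2 and Nr4a1, and they overlap for Nr4a2 and Nr4a3.

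The files of the sorted cells also give each transcript. Egr1, Ier2, Ier3 and Klf2 have 1 annotated transcript each in these files, and the canonical transcript of Klf4 took 97.7% and 98.0% of its counts. In Nr4a2 a transcript annotated as a target of nonsense-mediated decay, took 32.1 ± 4.39% of the gene's counts in CD61 low cells and 9.27 ± 0.935% in CD61 high cells (mean ± SD, n = 3), with no overlap. These shares rest on a total of 144 to 222 estimated counts for the gene and were not tested. In Egr3, the transcript annotated as a retained intron took 46.7 ± 14.7% and 63.8 ± 10.2%, and those libraries overlapped.

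Other cell features moved with the sort. The summed level of the 12 osteoblast to osteocyte markers was 19952 to 23709 CPM in CD61 low and 45707 to 47435 CPM in CD61 high libraries, scaled by library size. That of the 12 heat shock genes, a sign of cell handling, was 5018 to 5717 CPM in CD61 low and 3310 to 3484 CPM in CD61 high libraries. Most of that difference was in Hspa5, an endoplasmic reticulum chaperone (1957 against 442 CPM after TMM scaling, Log2FC -2.15). It was the only 1 of 11 tested genes called, where 4.37% of all genes were called lower. The median Log2FC of the 11 was -0.09. The summed level of the 7 endothelial markers was 16.7 to 23.0 CPM in CD61 low and 65.9 to 82.0 CPM in CD61 high libraries, with Vwf the only one tested (Log2FC 2.16, called higher) and Emcn at 0 in both. Of 3 chondrocyte markers tested, Col2a1 (Log2FC 1.83) and Comp (1.63) were called higher, where 4.84% of all genes were. They stood at 2.00 and 4.10 CPM in CD61 high cells. The summed level of the 8 macrophage markers was 18.8 to 24.6 CPM in CD61 low and 10.6 to 11.8 CPM in CD61 high libraries. Of the 2 tested, 0 were called higher (4.84% of all genes) and 0 lower (4.37% of all genes), with a median Log2FC of -0.64. Mitochondrially encoded transcripts took 4.26 to 4.46% and 3.72 to 4.27% of counts. The part of these differences in the results above was not tested.

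Levels in the sorted cells were also set beside those of day 14. The tables were made separately, with other tools, and the cells were handled differently, so that the ratios are given side by side with no test. Over 9894 genes with at least 5 CPM in both, the median ratio of CD61 low to day 14 CPM was 0.94, and for CD61 high it was 0.78 over 9696 genes. In CD61 low cells Ier2 was at 3.98 times its day 14 level, Egr2 at 2.71, Egr1 at 2.53 and Ier3 at 2.43, while Nr4a1 was at 1.27, Klf2 at 0.93, Egr3 at 0.92, Nr4a2 at 0.84 and Klf4 at 0.83. In CD61 high cells, Ier3 was at 4.82 times its day 14 level, Ier2 at 3.79, Egr2 at 3.29, Egr1 at 2.68 and Nr4a1 at 2.11, while Klf2 was at 1.66, Egr3 at 1.38, Klf4 at 1.25 and Nr4a2 at 0.97. Nr4a3, which was under the level minimum, was at 0.34 in both sorted groups. For 11 heat shock genes the median ratio was 2.14 in CD61 low cells, with 10 above 1, and 1.34 in CD61 high cells, with 7 above 1. For 37 other immediate early genes it was 1.43 in CD61 low cells (0.43 to 24.1, 25 above 1) and 1.24 in CD61 high cells (0.35 to 45.2, 23 above 1). Over all genes the 5th and 95th percentiles were 0.45 and 2.57 in CD61 low and 0.40 and 2.08 in CD61 high cells. Trypsin treatment and a longer culture both separate these cells from those of day 14 and cannot be told apart here.

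Other immediate early genes moved in both directions. Of 40 further such genes, 37 were tested over days, and 7 were called higher (7.51% of all genes) and 3 lower (5.9% of all genes) at day 14 than at day 1 in limma, with a median Log2FC of 0.43. Those with the largest changes were Maff (Log2FC 2.72), Fosb (2.22), Atf3 (2.19) and Phlda1 (2.17). In the sort, 6 of 39 were called higher (4.84% of all genes) and 4 lower (4.37% of all genes) in edgeR, with a median of 0.17; Fosb (Log2FC 1.68) and Cebpd (1.36) were higher and Plk2 (-1.67) and Atf3 (-1.27) lower in CD61 high cells. Fosb, an AP-1 subunit, was higher in both comparisons, and Atf3, a stress-induced factor, was higher at day 14 and lower in CD61 high cells. Fosb stood at 9.82 CPM at day 14, and at 73.4 and 236 CPM after TMM scaling in CD61 low and CD61 high cells. For Atf3 these levels were 18.6, 17.4 and 7.20 CPM. The sorted cells were handled differently, and the part of this in their levels was not tested.

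Genes that act upstream of these promoters were also followed. Among 17 factors that bind immediate early promoters, such as Srf, Elk1 and Creb1, 15 were tested over days, and 1 was called higher at day 14 in limma (7.51% of all genes). In edgeR on the recovered reads 2 were, where 1334 of 12725 genes were called higher. The call in limma was Mef2c, whose product binds AT-rich sites and is known for its role in osteocytes (183 CPM at day 1, 775 CPM at day 14, Log2FC 2.08). At day 10 Mef2a was called as well in limma (Log2FC 1.56). In the sort 0 of 17 were called by edgeR, where 4.84% of all genes were called higher and 4.37% lower, and 0 by DESeq2. At an unadjusted p below 0.05, 5 were higher and 8 lower. Of the 14 ERK and ERK5 cascade kinases, 0 were called at day 14 in limma, where 7.51% of all genes were called higher and 5.9% lower. In edgeR on the recovered reads 0 were, where 1334 of 12725 genes were called higher and 956 lower. At an unadjusted p below 0.05, 5 kinases were higher and 6 lower. Rps6ka2, a ribosomal S6 kinase gene, was called lower at day 10 than at day 1 (49.0 to 15.0 CPM, Log2FC -1.65) and than at day 7 (Log2FC -1.10). It was also called lower in CD61 high cells (Log2FC -1.08). Of 16 genes for ERK inhibitors and EGR co-repressors, 6 were called higher at day 10 (6.06% of all genes), led by Spry1 (Log2FC 1.89), Spry4 (1.61), Spry2 (1.39) and Spred2 (1.29), which encode feedback inhibitors of the ERK pathway. At day 14, 4 were called higher (7.51% of all genes) and Dusp14, which encodes a dual specificity phosphatase, lower (Log2FC -1.43), and of the 16 tested in the sort 1 was called higher (4.84% of all genes), Spry4 (Log2FC 1.15), and 2 lower (4.37% of all genes), Dusp14 (-1.75) and Dusp4 (-1.30).

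Of 15 other Krüppel-like factor genes, 10 were tested and 2 were called higher at day 14 in limma (7.51% of all genes), Klf3 (Log2FC 1.17) and Klf9 (1.11). In edgeR on the recovered reads 4 were, where 1334 of 12725 genes were called higher. In the sort 0 of 10 were called by edgeR, where 4.84% of all genes were called higher and 4.37% lower, and 0 by DESeq2. At an unadjusted p below 0.05, 3 were higher and 2 lower. Among 13 early targets of cAMP signalling, 11 were tested over days, and 1 was called higher (7.51% of all genes) and 1 lower (5.9% of all genes) at day 14. Ptgs2, which encodes the inducible prostaglandin synthase, rose from 13.9 to 96.3 CPM (Log2FC 2.71) and Pde4b, a cAMP phosphodiesterase gene, fell from 12.9 to 5.52 CPM (Log2FC -1.10) by day 14, and in the sort 1 of 9 tested was called, Rgs2, lower (Log2FC -1.70; 4.37% of all genes). Some genes stand in more than 1 of these lists.

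For each gene, the genes with the most similar course were sought among 10304 others with a mean of at least 5 CPM, by Pearson's r of log2(CPM + 1) over the 8 day libraries. Since the libraries fall on 4 days and the search was wide, high r values are a description and no test was made. Klf4 was most like Alpl (r = 0.999), the alkaline phosphatase of mineralizing cells, which went from 412 to 1912, 1623 and 1676 CPM. Egr2 was most like Itpkb (r = 0.99415), followed by Sost (r = 0.99251) and Tada3 (r = 0.99249). Genes after the nearest are named for Egr2 only. Itpkb went from 76.8 CPM at day 1 to 133 CPM at day 14. Sost, which encodes the Wnt inhibitor sclerostin, went from 0 CPM at day 1 to 0.664, 3.35 and 17.7 CPM. Egr1 was most like Kdm3a (r = 0.997), a histone demethylase gene, and Egr3 like Zfp518a (r = 0.994). Nr4a1 had Rab11fip4 (r = 0.998), Nr4a2 had Rapgef6 (r = 0.987), Nr4a3 had Siah1a (r = 0.997) and Ier2 had Zfand2b (r = 0.996). Ier3 was most like Bhlhe40 (r = 0.997), a circadian and hypoxia-responsive repressor gene that went from 123 to 543 CPM at day 7 and back to 192 CPM at day 10, and Klf2 like Chst11 (r = 0.996), a chondroitin sulfotransferase gene.

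Several of the 10 genes overlap other annotated genes. Klf2 shares its locus with the protein-coding gene Eps15l1 on the opposite strand, and Egr2, Nr4a1, Nr4a3 and Ier3 overlap long noncoding RNA genes. Whether the reads were counted by strand is not given in the sources used here, so that reads of such pairs cannot be told apart with certainty.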

How the data were processed

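The members and gene lists were chosen with earlier results of these data known. For the day libraries the deposited values are CPM, which the authors made with STAR and HTSeq; the build, annotation and strand setting are not given in the sources used here. Whole reads were recovered from the CPM steps (100.0% of values within 0.01 of a whole number). For the sorting experiment, the authors deposited Salmon estimated counts per transcript (GRCm39) with TPM and effective lengths. The deposited TPM were not tested. Of 116747 transcripts, 115556 (99.3 to 99.4% of counts) matched GENCODE M39 and were summed per gene and rounded.

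Days were compared with limma 3.58.1 on log2(CPM + 1) over all 8 libraries, for genes with CPM above 1 in at least 1 library. Sorted cells were compared with edgeR 4.0.16 (quasi-likelihood test, TMM over all genes), leaving out genes under 5 normalized counts in any of the 6 libraries. The study named DESeq2 for this step, and version 1.42.0 was run as an alternative. Tests were two-sided with Benjamini-Hochberg adjustment over all genes tested, with calls at 0.01 and a Log2FC beyond 1 or -1, and intervals are 95%. Replicates are separate cultures of 1 line for each day; in the sort both CD61 groups were taken from the same 3 groups of cells, and the labels do not say that equal replicate numbers mark the same one. All 10 genes were named throughout; of the other lists, up to 4 called genes with the largest Log2FC were named, and for likeness the nearest genes by Pearson's r. Promoters are given for 9 of the 10 genes; that of Egr3 is not reported here. Fits were tested on simulated data. Alternatives covered pseudocount, filters, scaling, tool, threshold, replicate block and each library left out. R 4.3.3, Python 3.11.15, pandas 2.3.3 and matplotlib 3.10.9 were used.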

Additional observations from a re-analysis of the deposited data

How the results depend on the processing

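Most values kept their direction and their side of the threshold. Of the alternative Log2FC values of single genes, 833 for days and 151 for the sort did so, 7 and 0 passed the threshold newly, 2 and 8 lost it and 3 and 1 changed sign. Of the 8, 3 were the test against a Log2FC of 1, in which the Log2FC itself stayed the same. Many of the 833 values for days could not change in Log2FC. Other filters, variance settings and adjusted p thresholds leave it as it is. A left-out library was also counted for comparisons of days that do not hold it. The count of 833 is therefore no measure of how stable the values are. The sign changes were Nr4a3 for day 14 against day 10, at -0.0121 with quantile normalization, -0.0292 without day 10 replicate 1 and -0.1016 without day 14 replicate 1 (leaving out each library gave -0.1016 to 0.1294), and Ier2 in the sort, at -0.0709 with library size alone. The count of genes called higher at day 14 against day 10 was 1 to 3 with a library left out, and 1 without day 10 replicate 2. In the sort it was 2 to 3 with a library left out, 0 with library size alone and 0 in a test against a Log2FC of 1, where Ier3 had an adjusted p of 0.0153. The cause was not tested. Over all genes the sort gave 585 calls higher and 528 lower, 316 and 963 with library size alone, and 188 and 213 in the test against a Log2FC of 1. Day 10 against day 7 gave 182 higher and 100 lower, 131 and 132 with quantile normalization, 377 and 175 with a pseudocount of 0.1 and 332 and 216 in edgeR on the recovered reads; day 14 against day 10 gave 266 and 111, then 425 and 246 and 502 and 227 in the last pair of settings. The replicate number as a block changed no call of the 10 genes, with 574 higher and 509 lower over all genes in the sort. Same-numbered libraries correlated at -0.32, 0.22 and -0.06 in the sort and at -0.03 to 0.06 over days, so that the numbers were not treated as pairs. Differently numbered libraries of the sort ran from -0.41 (CD61 low 3 with CD61 high 2) to 0.47 (CD61 low 3 with CD61 high 1). A pairing under other numbers was not tested. Nr4a3 had the fewest counts of the 10 genes in the sort, with 24 to 49 estimated counts per library. A count of 3, the limit that 0 reads allow for counting error only, is 0.0874 to 0.109 CPM in the day libraries.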
